A study of Saccharomyces cerevisiae with 48 samples.

Results

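The genes described here are the 4 ribonucleotide reductase genes of budding yeast, RNR1, RNR2, RNR3 and RNR4, and HUG1, a damage-induced gene. They were taken by name and not by a measured value, though earlier results of these data were known. All 5 were found among the 6002 nuclear protein-coding genes of the gene table. Ribonucleotide reductase turns ribonucleotides into deoxyribonucleotides and so sets the supply of building blocks for DNA. The enzyme pairs a large subunit, usually Rnr1 and after DNA damage also Rnr3, with a small subunit made of Rnr2 and Rnr4. RNR1 is a G1/S gene, while RNR2, RNR3, RNR4 and HUG1 are held down by the repressor Rfx1 (Crt1) with Cyc8 and Tup1, and are released by the Mec1, Rad53 and Dun1 checkpoint kinases.

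The study mapped RNA polymerase II, by chromatin immunoprecipitation of its large subunit Rpb1 with the 8WG16 antibody, and DNA that binds biotinylated trimethylpsoralen (bTMP), an intercalator that enters underwound DNA more readily and was recovered with streptavidin. Rpb1 was mapped in S phase in strains labelled sen1, rrm3, sen1rrm3 and wild type. For bTMP these 4 strains were taken through 3 conditions, S phase, log phase and log phase at 32 °C. Further bTMP libraries came from log phase with top1 added to each strain (sen1top1, rrm3top1, sen1rrm3top1, top1) and from 32 °C with top2-1 added (sen1top2-1, rrm3top2-1, sen1rrm3top2-1, top2-1). SEN1 and RRM3 encode helicases, and TOP1 and TOP2 encode topoisomerases. The labels do not say how the sen1, rrm3 and top1 alleles were made. All cultures grew first in YPG and were then moved to YPD, a glucose medium. S-phase cells were released from alpha-factor arrest at 23 °C and collected after 45 to 50 min, log cells spent 2.5 h in YPD, and the 32 °C cells spent 1.5 h in YPD at 25 °C and 1 h at 32 °C. Each of the 24 peak lists stands for 1 library, so no group has replicates.

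The 4 Rpb1 lists held 2016 to 2136 peaks over 18.9% to 20.2% of the nuclear genome, and the 20 bTMP lists held 2678 to 4901 peaks over 6.997% to 25.9%. The bTMP lists came in 2 kinds. In 14 closely spaced lists, neighbouring peaks lay as near as 156 to 166 bp and the median peak was 234 to 262 bp wide. In the other 6 lists no gap was under 591 bp and the median peak was 599 to 685 bp wide: these widely spaced lists were the 4 of S phase and, at 32 °C, those of sen1 and of sen1rrm3. The last 2 stand apart from their labels: their peak names have the same form as those of S phase, and their peaks shared a larger part of the covered base pairs with the S-phase list of the same strain (Jaccard index 0.656 for sen1 and 0.761 for sen1rrm3) than with the 6 other lists at 32 °C (0.188 to 0.267 and 0.199 to 0.291). Mutation contrasts that use them are given with and without them. Of the stage markers, all 8 histone genes were wholly under Rpb1 in all 4 S-phase lists, and no more than 1 of 8 G2/M genes and 1 of 9 pheromone-response genes had any Rpb1 peak in a list. The pheromone-response gene was KAR4, under peaks by 99.3% in sen1, 43.0% in rrm3, 99.6% in sen1rrm3 and 42.8% in wild type. Of 19 G1/S genes, 16 had a peak in sen1 and 14 in each other list. Among all protein-coding genes, 6.05% were wholly covered in all 4 lists and 40.7% to 42.7% had a peak in a list.

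RNR1, the large subunit gene of the normal cell cycle, was wholly under Rpb1 in S phase in every strain. Cover, the percent of a gene's base pairs under peaks, was 100% in sen1, rrm3, sen1rrm3 and wild type; 6.05% of all protein-coding genes were fully covered in all 4 lists. The peak began at -128 bp from the gene start in sen1, -122 bp in rrm3, -129 bp in sen1rrm3 and -119 bp in wild type. These starts lie within 10 bp of each other. In wild type the peak ran from 298831 to 303555 on chromosome V in the coordinates of the deposited list, whose genome build no source used here gives. It therefore passed the 2667 bp gene and ended at +4605 bp from the gene start, having crossed TDA2 and VTC1, both also at 100%. It ended at +4517 bp in sen1 and +4539 bp in sen1rrm3, whereas in rrm3 it stopped at +3529 bp and a separate peak stood at +3772 to +4551 bp. By the authors' score the RNR1 peak ranked above most others, at percentile 97.9 of its list in sen1, 95.3 in rrm3, 96.7 in sen1rrm3 and 95.6 in wild type. Upstream, the arginine gene ARG56 had Rpb1 over 35.1% of its length in sen1, 29.4% in rrm3, 74.3% in sen1rrm3 and 25.6% in wild type, so that only sen1rrm3 differed from wild type there by more than 20 points.

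RNR3, which encodes the large subunit made after damage, had no Rpb1 peak over any base pair in any of the 4 lists. Neither had its neighbours FIS1 and YIL067C. The nearest peak lay upstream and reached to -1864 bp in sen1, -1900 bp in rrm3, -1911 bp in sen1rrm3 and -1884 bp in wild type. This was no rare state, since 50.5% of protein-coding genes had no Rpb1 peak in any list.

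RNR2, which encodes the subunit that carries the enzyme's radical, was the one reductase gene whose Rpb1 cover passed a difference of 20 points between strains. Its cover was 50.7% in sen1, 26.3% in rrm3, 69.0% in sen1rrm3 and 0% in wild type. The gain against wild type was thus shared by all 3 mutants, and it lay inside the gene. In sen1 the peaks stood at +226 to +407 bp and +583 to +1008 bp, in rrm3 at +608 to +923 bp, and in sen1rrm3 a single peak stood at +214 to +1041 bp of the 1200 bp gene. None reached the 300 bp on either side, which were at 0% in all 4 lists. Wild type had no peak within 6207 bp of the gene. The peaks were weak by the authors' score, at percentiles 7.2 and 20.6 in sen1, 7.2 in rrm3 and 23.2 in sen1rrm3. With only the upper 50% of peaks by score kept, RNR2 was at 0% in all 4 lists.

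A gain of 20 points or more against wild type was seen at 8.86% of all protein-coding genes in sen1, 2.12% in rrm3 and 6.8% in sen1rrm3, and 1 of the 5 genes described here (RNR2) met it in each. A loss of that size was seen at 5.96% of all genes in sen1, 3.35% in rrm3 and 6.51% in sen1rrm3. RNR2, RNR3, RNR4 and HUG1 were at 0% in wild type and could not be lower, and RNR1 stayed at 100%. Against rrm3, sen1rrm3 was higher by 20 points at RNR2 and at 6.98% of all genes, and lower by as much at none of the 5 and at 6.26% of all. Of the 5, only RNR1 and RNR2 had cover in rrm3 and so could be lower there. Against sen1, sen1rrm3 was higher by 18.3 points at RNR2, short of 20 points, a size reached upward by 1.98% of all genes and by none of the 5. A pattern like that of RNR2, with 0% in wild type, some cover in rrm3 and at least 50% in sen1 and sen1rrm3, was found at 10 genes, or 0.167%; this pattern was chosen after the values were seen. The genes nearest to RNR2 over the 4 covers were SIF2, SQS1 and BRL1, at Euclidean distances of 13.0, 13.9 and 14.3 points. SIF2, for example, had 57.8% in sen1, 16.3% in rrm3, 64.9% in sen1rrm3 and 0% in wild type.

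RNR4, which encodes the partner small subunit, had a single Rpb1 peak over its body, in sen1rrm3. It lay at +460 to +636 bp of the 1038 bp gene, gave a cover of 17.1% and stood at score percentile 20.1. Cover was 0% in sen1, rrm3 and wild type. MRX19, DMA1 and VPS60 had the most similar covers, all at 0% in sen1, rrm3 and wild type, with 18.0%, 14.4% and 20.6% in sen1rrm3.

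tRNA genes lie upstream of both small subunit genes, and Rpb1 peaks appeared beside them in the sen1 strains. Before RNR2, a peak at -1317 to -1107 bp in sen1 covered 39.7% of the tRNA gene EMT5, and a peak at -1286 to -1090 bp in sen1rrm3 passed beside it without overlap. rrm3 and wild type had no peak there. Before RNR4, a peak at -1377 to -1144 bp in sen1 covered 41.2% of the tRNA gene YNCG0040C and another in sen1rrm3, at -1358 to -1172 bp, covered 16.7%, against 0% in rrm3 and wild type. These peaks did not join those over RNR2 and RNR4. In all, 2 of the 5 genes had some Rpb1 cover in sen1, 2 in rrm3, 3 in sen1rrm3 and 1 in wild type, against 42.7%, 41.1%, 40.7% and 40.8% of all genes in the same order. At least 50% of the body was covered at 2 of the 5 in sen1, 1 in rrm3, 2 in sen1rrm3 and 1 in wild type, against 24.0%, 21.6%, 22.1% and 21.9% of all genes.

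HUG1, whose small protein binds the reductase, had no Rpb1 peak over its 207 bp in any list. Its neighbour SML1, which encodes the inhibitor of Rnr1 and lies downstream on the same strand, was at 100% in all 4. The peak over SML1 began at +576 bp from the HUG1 start in sen1, +535 bp in rrm3, +516 bp in sen1rrm3 and +509 bp in wild type, and so 302 to 369 bp past the end of HUG1. It ranked high by score, between percentiles 79.3 and 87.4. A weak peak at -1206 to -902 bp (percentile 2.4), over NTE1, was present in rrm3 alone among the 4 lists.

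**Figure D1:**
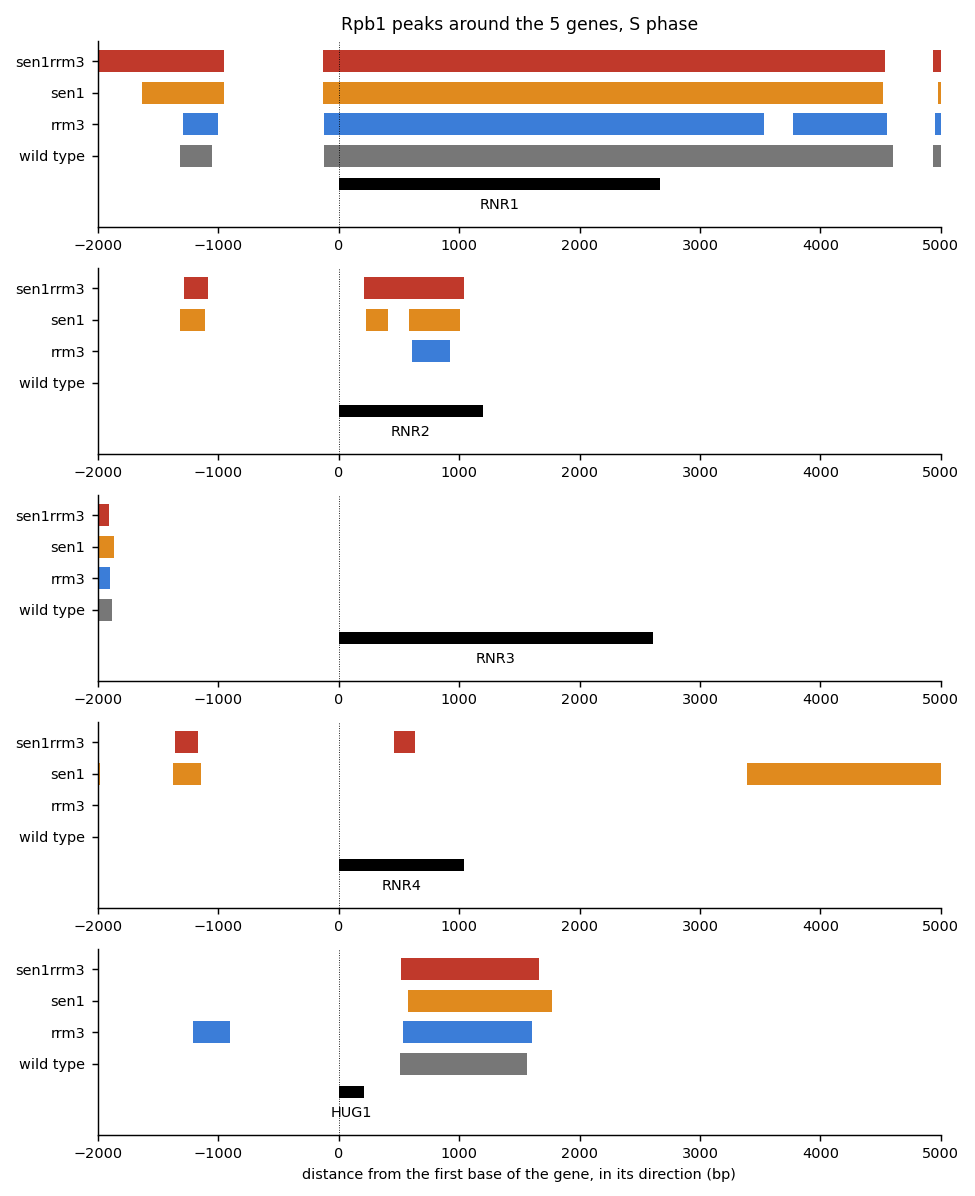
Rpb1 peaks in S phase around each gene, with distance from the first base of the gene (bp) on the horizontal axis and 1 row per strain; the black bar is the gene. RNR1 lies under 1 long peak in every strain, RNR2 has peaks in the 3 mutants alone, RNR4 has 1 peak in sen1rrm3, and RNR3 and HUG1 have none.

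Among 14 genes that regulate the reductase, 2 were lower by at least 20 points in sen1 and in sen1rrm3 against wild type, and none was higher. Losses of this size were seen at 5.96% of all genes in sen1 and 6.51% in sen1rrm3. The pair were DIF1, whose product brings Rnr2 and Rnr4 into the nucleus, and IXR1, which encodes a DNA-binding protein needed for full RNR1 expression. DIF1 had 0% in sen1, 71.1% in rrm3, 0% in sen1rrm3 and 76.6% in wild type, so that its peak was missing in exactly the strains with sen1. The nearest peak in those 2 lists lay upstream, over CAR2 and LSM3, and in sen1 reached to -1538 bp, in sen1rrm3 to -1615 bp. At least 50% cover in rrm3 and wild type with 0% in sen1 and sen1rrm3 was a pattern of 11 genes, or 0.183%, and was chosen after the values were seen. The DIF1 peak was weak, at percentile 22.7 in rrm3 and 31.9 in wild type, and it too was absent from the upper 50% of peaks.

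IXR1 had 13.2% in sen1, 66.2% in rrm3, 16.6% in sen1rrm3 and 81.3% in wild type. The peak over the gene end began at +1557 bp in sen1, +1013 bp in rrm3, +1497 bp in sen1rrm3 and +335 bp in wild type, and ended between +2095 and +2138 bp in all 4. In rrm3 part of the cover came from outside that peak, since the upper 50% of peaks by score gave 43.5%. The checkpoint kinase gene DUN1 stayed near 10% (11.3% in sen1, 10.3% in rrm3, 10.3% in sen1rrm3 and 9.86% in wild type), and RAD53 and MEC1 were at 0% in all 4 lists. Of the 14 regulators, 8 had any cover in wild type. The median difference against wild type over all 14 was 0 points in sen1, in rrm3 and in sen1rrm3, as over all protein-coding genes. The mean difference was -11.1 points in sen1, -1.49 in rrm3 and -11.4 in sen1rrm3, against 1.57, -0.184 and -0.0173 over all genes. These means include the large losses at DIF1 and IXR1.

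The 8 genes of dNTP and thymidylate synthesis differed in both directions. Against wild type by 20 points, 1 was higher and 1 lower in sen1 (8.86% and 5.96% of all genes), 1 was higher and 1 lower in rrm3 (2.12% and 3.35%), and 0 were higher and 2 lower in sen1rrm3 (6.8% and 6.51%). DUT1, which encodes dUTPase, had 77.5% in sen1, 78.6% in rrm3, 11.9% in sen1rrm3 and 45.5% in wild type. URA6, a uridylate kinase gene, had 61.1% in sen1, 81.8% in rrm3, 0% in sen1rrm3 and 85.9% in wild type. In the upper 50% of peaks, DUT1 kept cover in sen1 alone (77.5%) and URA6 in no list. At both genes sen1rrm3 was the lowest list over all peaks, and it was lower than sen1 by 20 points at 2 of the 8 genes, against 4.52% of all genes. Of 12 DNA-damage-inducible genes, 8 lacked Rpb1 cover in wild type, as did 59.2% of all genes. RAD23, a nucleotide excision repair gene of that list named after its values were seen, had 0% in sen1, 43.9% in rrm3, 0% in sen1rrm3 and 44.1% in wild type, and it had no cover in any list within the upper 50% of peaks.

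**Figure D2:**
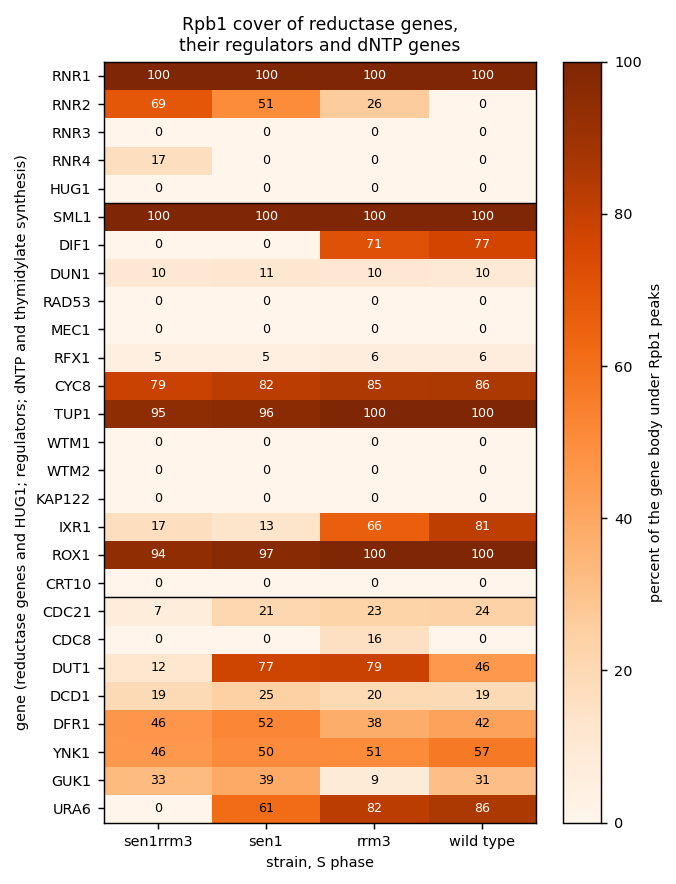
Percent of each gene body under Rpb1 peaks in S phase, by strain, for the reductase genes and HUG1 (top), 14 regulators (middle) and 8 genes of dNTP and thymidylate synthesis (bottom). DIF1 and IXR1 are low in the 2 strains with sen1 (0% and 13.2% in sen1), and DUT1 and URA6 are lowest in sen1rrm3 (11.9% and 0%).

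bTMP peaks at the small subunit genes lay before the gene start and hardly touched the body. In the 300 bp upstream, RNR1 had a peak in 15 of 20 lists, RNR2 in 18, RNR3 in 11, RNR4 in 19 and HUG1 in 4. As many lists or more were reached by 22.1%, 14.0%, 29.6%, 10.7% and 50.8% of all protein-coding genes, and within single lists 25.4% to 46.4% of genes had an upstream peak. Over the body, RNR2 had bTMP cover in 2 of 20 lists, of at most 8.25%, and RNR4 in 2 of 20, of at most 0.385%, numbers of lists that 80.2% of all genes reached. RNR1 had it in 17 of 20, with a median of 5.42% and a highest value of 33.7%, and RNR3 in 16 of 20, with a median of 4.50% and a highest value of 50.6%. As many lists were reached by 26.4% of all genes for RNR1 and by 30.4% for RNR3.

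The upstream peaks of RNR1 and RNR2 each began at nearly the same position from list to list, while the start of the RNR4 peak varied more. In the closely spaced lists the RNR1 peak, found in 13 of 14, began between -229 and -220 bp and ended between +4 and +236 bp. The RNR2 peak, in 12 of 14, began between -184 and -176 bp and ended between -17 and -12 bp. It thus lay over most of the 154 bp that separate RNR2 from the divergent gene YJL027C, and the 2 genes' covers over 20 lists correlated at Pearson's r = 0.936, with part of the measured stretch in common. The RNR4 peak, in 13 of 14, began between -301 and -223 bp and ended between -39 and -2 bp. By score the median percentile was 10.8 for RNR1, 46.1 for RNR2, 61.1 for RNR3 and 42.0 for RNR4, so the peak before RNR1 was among the weaker ones of its lists.

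**Figure D3:**
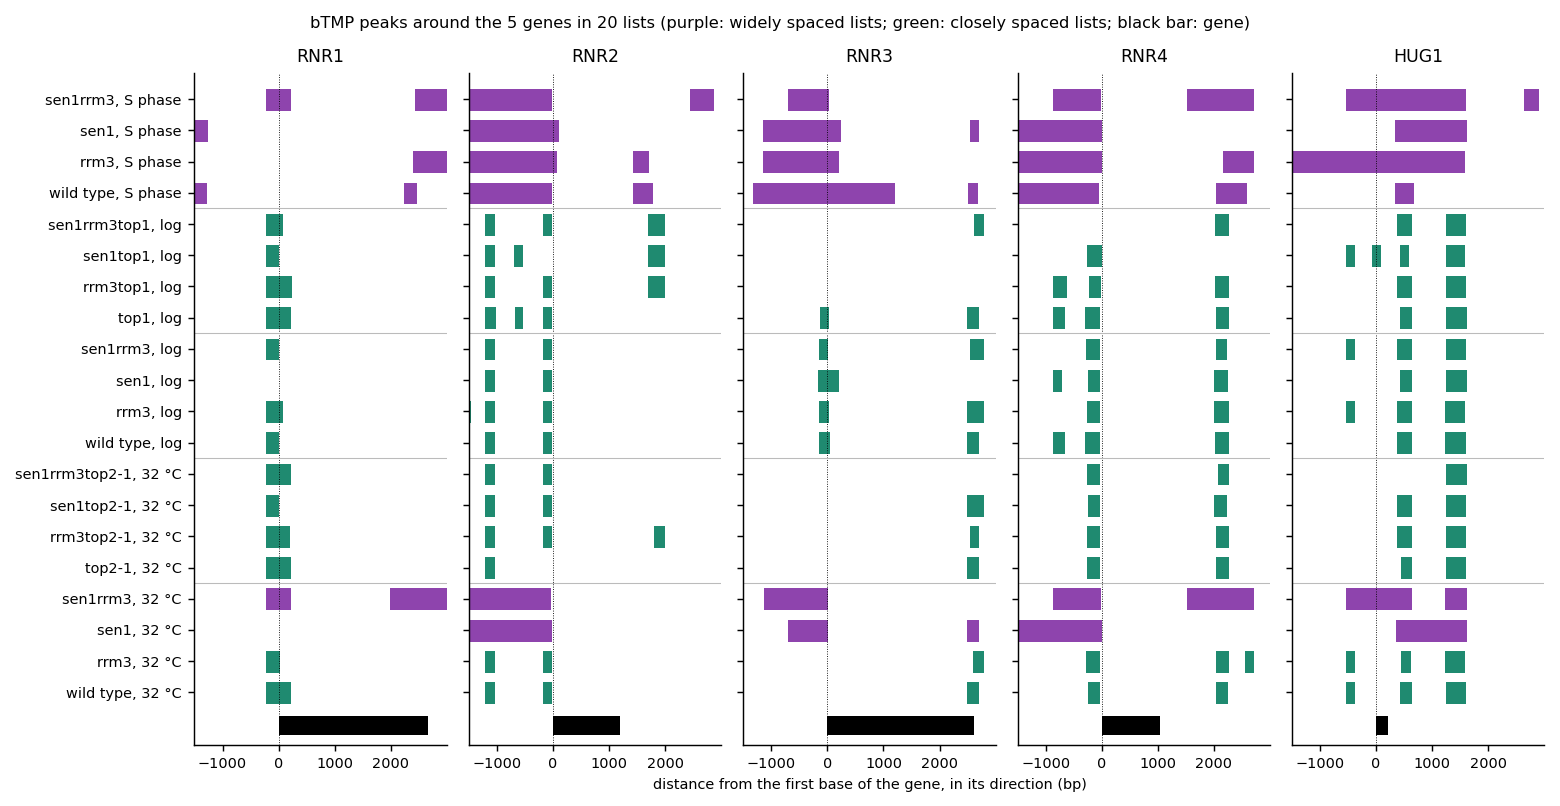
bTMP peaks around each gene in the 20 lists, with distance from the first base of the gene (bp) on the horizontal axis and 1 row per list; purple lists are widely spaced, green ones closely spaced, and black bars are the genes. In the closely spaced lists the upstream peaks of RNR1, RNR2 and RNR4 are present in 13, 12 and 13 of 14 lists, and that of RNR3 in 5.

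The 5 lists without an upstream RNR1 peak were sen1, rrm3 and wild type in S phase, sen1 in log phase and sen1 at 32 °C. All 3 lists of the strain labelled sen1 alone therefore lacked it. So did 44.0% of all genes, a share that includes the 28.7% with no upstream peak in any of 20 lists. No share is given among genes that, like RNR1, had the peak in most lists. Upstream cover in S phase was 0% in sen1, 0% in rrm3, 76.3% in sen1rrm3 and 0% in wild type. In log phase it was 0% in sen1, 74.0% in rrm3, 76.3% in sen1rrm3 and 74.3% in wild type. The log-phase peak was weak by score, at percentile 10.8 in rrm3, 22.9 in sen1rrm3 and 2.5 in wild type. With top1 or top2-1 added, all 8 lists had the peak, with 73.3% to 74.7% of the upstream stretch covered. At 32 °C without top2-1 the values were 0% in sen1, 73.3% in rrm3, 75.0% in sen1rrm3 and 74.3% in wild type, and the list of sen1 is one of those that stand apart.

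RNR2 and RNR4 had a peak in the 300 bp upstream in nearly every strain and condition. For RNR2 the lists without it were sen1top1 in log phase and top2-1 at 32 °C, and where present its upstream cover was 53.3% to 57.7% in the closely spaced lists. For RNR4 the single list without it was sen1rrm3top1 in log phase, and otherwise its cover was 67.3% to 100%. Both genes had a peak there in all 4 S-phase lists and all 4 log-phase lists without top1. The S-phase peaks were much wider, at 1585 to 2386 bp for RNR2 and 849 to 2775 bp for RNR4. At RNR2 they began at -1600 bp or further upstream, so they need not stand for the same narrow peak.

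The upstream peak of RNR3 differed between the sets of lists. It was present in 6 of 6 widely spaced lists and in 5 of 14 closely spaced ones. Condition and kind of list therefore cannot be told apart for S phase. In S phase the 300 bp upstream were wholly covered in all 4 strains. In log phase the cover was 54.3% in sen1, 49.7% in rrm3, 50.3% in sen1rrm3 and 50.3% in wild type. With top1 it was 0% in sen1top1, rrm3top1 and sen1rrm3top1 and 46.0% in top1. At 32 °C it was 0% in rrm3, in wild type and in all 4 top2-1 strains, and 100% in sen1 and sen1rrm3, the lists that stand apart. Without those 2, none of the 6 lists at 32 °C had the peak, against 4 of 4 lists in log phase without top1. Of these 6 lists, 4 carried top2-1. A peak in all 4 log lists and in none of the 6 closely spaced lists at 32 °C was found at 6 genes, 0.1% of all, and a peak in all 4 log lists and in at most 1 of the 4 top1 lists at 51 genes, 0.85%; both patterns were chosen after the values were seen. A second site, at the end of RNR3 near +2633 bp, was present in 13 of 20 lists, in 10 of the 14 closely spaced ones.

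In wild-type S phase the peak before RNR3 was unlike that of the other strains. It ran from -1326 to +1209 bp, and with a separate peak at +2500 to +2678 bp the cover of the gene body was 50.6%, against 11.9% in sen1, 8.01% in rrm3 and 1.38% in sen1rrm3. In the other 16 lists the body cover of RNR3 did not pass 8.24%.

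HUG1 had bTMP over its body or the 300 bp upstream in 4 of 20 lists, against 16 to 19 for the reductase genes. As many lists as HUG1 were reached by 77.5% of all genes. Its body was wholly covered in 3 lists, those of rrm3 and sen1rrm3 in S phase and sen1rrm3 at 32 °C, was covered by 45.9% in sen1top1 in log phase, and had 0% in the other 16. The 3 lists with full cover were the 3 widely spaced lists with rrm3, and the 3 widely spaced lists without rrm3 were at 0%. Leaving out the lists that stand apart, this was 2 of 2 S-phase lists with rrm3 against 0 of 2 without. The pattern over the 6 lists was shared by 8 genes, 0.133% of all, and was chosen after the values were seen. In sen1rrm3 in S phase the peak ran from -539 to +1608 bp. Closely spaced lists held separate peaks within that span, among them one before NTE1 that began at -538 bp in rrm3 in log phase and one between HUG1 and SML1 near +507 bp. This second site, which is the upstream stretch of SML1, was present in 19 of 20 lists and was absent only in sen1rrm3top2-1 at 32 °C. The merging of neighbouring peaks in widely spaced lists was not tested as a source of the full cover.

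**Figure D4:**
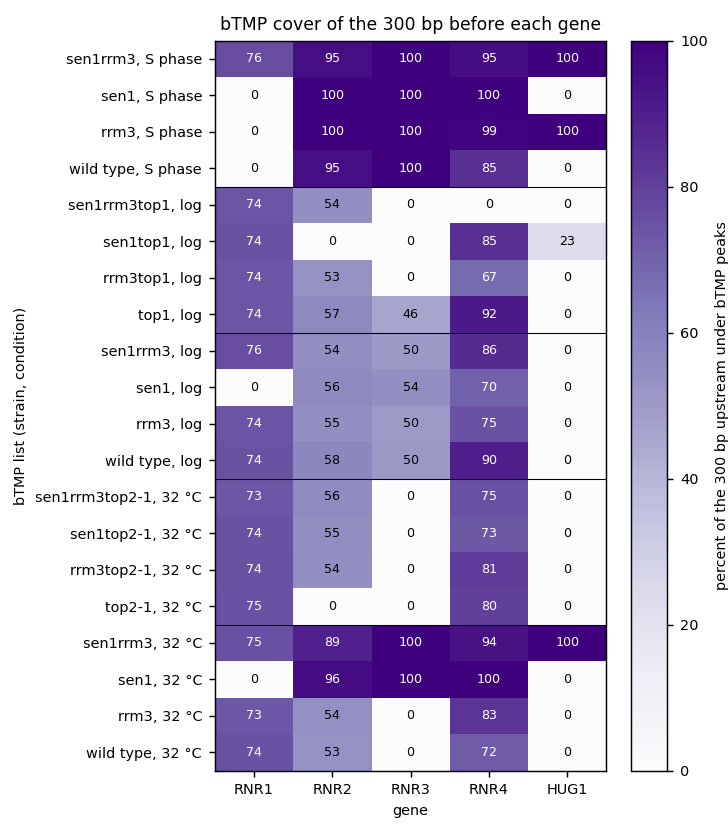
Percent of the 300 bp before each gene under bTMP peaks, with 1 row per list and lines between the sets of conditions. RNR2 and RNR4 are covered in 18 and 19 of 20 lists, RNR3 is covered in S phase and log phase but in 1 of 4 top1 lists and in none of the closely spaced lists at 32 °C, and HUG1 is covered in 4 lists.

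Other bTMP sites lay beside the members. These, like the sites at the RNR3 end and between HUG1 and SML1, were chosen after the peaks were seen. Any overlapping peak was counted, also a long one of a widely spaced list, and no share over all genes was taken. Of the 14 closely spaced lists, the 5 sites named next were present in 14, 12, 13, 13 and 5, in that order. A site before YJL028W, with its median centre at -1119 bp from the RNR2 start, was present in 20 of 20 lists and ranked at a median score percentile of 98.6 in the closely spaced ones. A site in VTC1, near +4131 bp from the RNR1 start and under the long Rpb1 peak, was present in 17 of 20. Beside RNR4, a site within OKP1 was present in 17 of 20 lists and one before TIM13 in 18 of 20. The site before NTE1, beside HUG1, was present in 8 of 20. Of the 14 regulators, MEC1, CYC8 and IXR1 had a peak in the 300 bp upstream in 20 of 20 lists, as did 5.48% of all genes, and DUN1 and KAP122 in 0 of 20, as did 28.7%. These regulators were named after their values were seen.

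The effect of each mutation on bTMP cover of the gene and its 300 bp upstream was then taken over pairs of lists that differ in 1 mutation. With 10 pairs for sen1 and 10 for rrm3, none of the 5 genes changed by at least 10 points the same way in 7 pairs. Of all genes, 0.283% met this size rule upward and 0.0167% downward in sen1 pairs. In rrm3 pairs the shares were 0.2% and 0.417%. With shares this small, 0 of 5 says little about these genes. Losing an upstream peak can also fall short of 10 points. For RNR1, its complete loss in the log-phase pair without rrm3 or top1 gave only -7.685 points. HUG1 was equal in 8 sen1 pairs and 6 rrm3 pairs, too many for the rule to be met. The two-sided exact sign-flip permutation test with Benjamini-Hochberg adjustment over 5490 genes called 0 genes in either contrast. At an unadjusted p under 0.05 it had 261 genes in sen1 pairs and 330 in rrm3 pairs, and limma called 0 genes, with 457 and 396 at an unadjusted p under 0.05. With 10 pairs the smallest p is 0.001953, which is too large to pass that adjustment for a single gene.

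RNR3 was the gene whose pairs lay most to one side. Its cover averaged 6.06% ± 6.32 in rrm3 lists and 13.7% ± 16.01 in their partners (SD, n = 10 each), and was lower in 9 of 10 pairs and equal in the other. The mean difference was -7.60 ± 11.2 points (exact permutation p = 0.003906, adjusted p = 0.736), and so did not pass the adjustment. Single differences ran from -38.2 points, in S phase against wild type, to 0, and without that pair the mean was -4.20 points. With the upper 50% of peaks by score it was -1.45 points. Only that pair passed 10 points.

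RNR1 leaned the other way. Its cover averaged 15.1% ± 9.21 in rrm3 lists and 7.52% ± 6.02 in their partners (SD, n = 10 each), higher in 8 of 10 pairs (exact permutation p = 0.06445, adjusted p = 0.750). The mean difference of 7.57 points became 4.20 points without the pair of sen1rrm3 and sen1 at 32 °C, whose lists stand apart and which alone gave 37.9 points. For RNR2 and RNR4 the rrm3 pairs were split 5 to 5, with mean differences of 1.76 ± 5.83 and -2.07 ± 6.60 points (SD, n = 10). HUG1 was higher in 3 pairs, lower in 1 and equal in 6, with a mean difference of 26.8 ± 51.5 points. Without the pair whose lists stand apart, the mean differences were 2.11 points for RNR2, -8.04 for RNR3, -2.14 for RNR4 and 18.6 for HUG1.

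In sen1 pairs the mean differences were -0.782 ± 13.1 points for RNR1, 1.67 ± 7.03 for RNR2, -3.20 ± 12.7 for RNR3, -0.964 ± 5.90 for RNR4 and 13.3 ± 32.2 for HUG1 (SD, n = 10). Each mean was smaller than the spread of its pairs, and exact permutation p-values ran from 0.453 to 0.867. HUG1 was equal in 8 of the 10 pairs. Of these pairs, 2 set a widely against a closely spaced list, and without the lists that stand apart the mean differences were -2.85, 0.125, -6.58, -2.33 and 4.07 points, in the same order of genes.

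**Figure D5:**
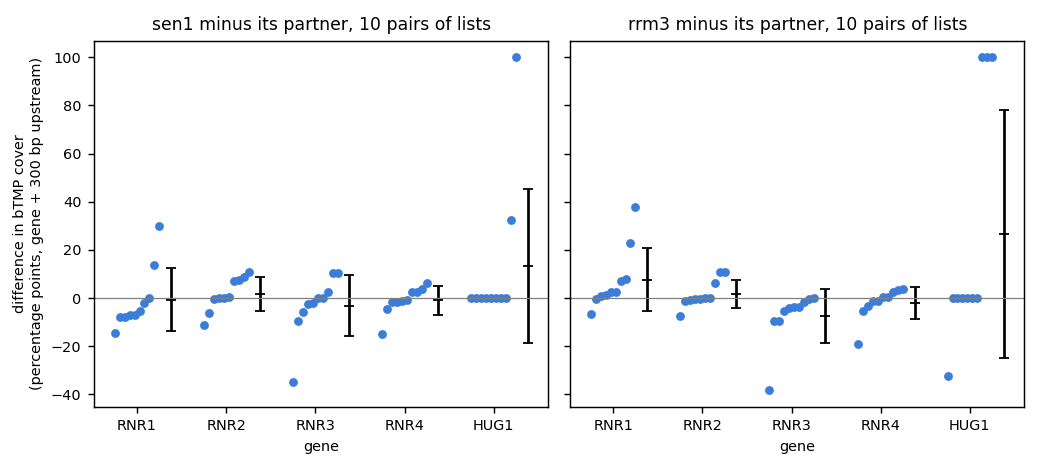
Differences in bTMP cover (percentage points, gene and 300 bp upstream) for each of 10 pairs of lists that differ in sen1 (left) or rrm3 (right), by gene; black bars give mean ± SD. In rrm3 pairs all RNR3 points lie at or below 0, with 1 at -38.2, and in 3 pairs HUG1 differs by 100 points.

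Adding top1 in log phase gave 4 pairs, all of closely spaced lists. RNR1 was higher with top1 in 4 of 4 pairs, at 12.1% ± 3.66 with top1 and 6.48% ± 4.46 without (SD, n = 4 each), a mean difference of 5.57 ± 2.49 points. This difference was 0 points both with the upper 50% of peaks by score and with lists cut to equal length. RNR3 was lower in 4 of 4, at 2.40% ± 4.79 with top1 and 10.4% ± 2.17 without (SD, n = 4 each), a mean difference of -7.98 ± 5.13 points. Both had an exact permutation p of 0.125, the smallest that 4 pairs allow. RNR2 was lower in 3 pairs and equal in 1 (-2.92 ± 5.57 points), RNR4 was split 2 to 2, and HUG1 differed in 1 pair.

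With top2-1 at 32 °C, the mean differences were -2.32 ± 14.4 points for RNR1, -6.40 ± 4.61 for RNR2, -4.95 ± 6.67 for RNR3, -2.28 ± 3.62 for RNR4 and -25.0 ± 50.0 for HUG1 (SD, n = 4). In 2 of these 4 pairs the list without top2-1 is one that stands apart and is widely spaced. Over the other 2 pairs the mean differences were 3.15 points for RNR1, -5.30 for RNR2, 0.790 for RNR3, 0.673 for RNR4 and 0 for HUG1, so that 3 signs turned and the HUG1 value came from 1 pair. S phase against log phase set a widely against a closely spaced list in all 4 pairs, so phase and kind of list cannot be told apart. There RNR2 had 22.5% ± 4.06 in S phase and 11.2% ± 0.310 in log phase, and RNR3 had 26.4% ± 19.9 in S phase and 10.4% ± 2.17 in log phase (SD, n = 4 each), each higher in 4 of 4 pairs (exact permutation p = 0.125).

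bTMP at the loci of the strains' own mutations was taken over the gene body alone, without the 300 bp upstream. SEN1 had bTMP cover in 4 of 10 lists with sen1 and in 8 of 10 without, and TOP2 in 4 of 4 lists with top2-1 and in 10 of 16 without. RRM3 had it in 0 of 10 lists with rrm3 and in 7 of 10 without, and TOP1 in 1 of 4 lists with top1 and in 16 of 16 without. Splits were also seen by mutations of other genes. SEN1 had cover in 1 of 4 lists with top2-1 and 11 of 16 without, and in 4 of 4 with top1 and 8 of 16 without. No share of all genes with such splits is given, and their cause was not tested.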

How the data were processed

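Each of the 24 immunoprecipitated libraries came with a deposited peak list that gives positions and a score per peak; the 24 inputs came without a file. The score is the authors', its scale is not stated, and it was used only to rank peaks within a list. No source used here names the genome build or how peaks were called; Bowtie2, Picard, SAMtools and deepTools are named, per the submitters' processing notes. Read depth is unknown, so no counting interval is given. Genes were placed with RefSeq's R64 table. As a check of position, the 43 ribosomal protein genes on the members' chromosomes were covered best by Rpb1 (98.1%) when moved by -30 to 80 bp. Cover is the percent of base pairs under peaks (gene body for Rpb1, body and 300 bp upstream for bTMP).

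Rpb1 has 1 library per strain, so a difference of 20 points was used and no test. bTMP contrasts used two-sided exact sign-flip permutation tests over pairs of lists for all genes, with Benjamini-Hochberg adjustment over 5490 genes with cover, in Python 3.11.15; limma 3.58.1 was the alternative fit. Pairs reuse libraries across contrasts and stand for different backgrounds, not repeats of one. The scripts were checked on simulated data. The members, gene lists and tests were chosen with earlier results of these data known. Named regulators and dNTP genes are SML1, DIF1 and DUN1 and those that differ by 20 points in sen1 or sen1rrm3 against wild type; genes most like a member are the 3 nearest over the 4 Rpb1 covers or by Pearson's r over the 20 bTMP lists. 1 gene of the DNA-damage-inducible list is not reported here.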

Additional observations from a re-analysis of the deposited data

How the results depend on the processing

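No analysis paired by replicate number was run, because each group has 1 library and the labels give no such numbers; the pairs of lists used here are matched by strain background and condition. The Rpb1 result at RNR2 rests on weak peaks: with only the upper 50% of peaks by score kept, the genes past 20 points numbered 0 in sen1, rrm3 and sen1rrm3 against wild type and in sen1rrm3 against rrm3, where there was 1 each, and those with at least 50% of the body covered numbered 1 in sen1 and in sen1rrm3, where there were 2. RNR2 was then at 0% in all 4 lists, as was DIF1, while RNR1 stayed at 100%. With a difference of 40 points the count in rrm3 was 0, and with 10 points it was 2 in sen1rrm3 against wild type, rrm3 and sen1, where RNR4 joined RNR2. At a pair difference of 1 point, 2 genes met the bTMP rule in rrm3 pairs, RNR1 upward and RNR3 downward. No share over all genes is given at that size, so this count has no background. Of 325 alternatives for bTMP differences, 288 kept their direction, 29 turned and 8 were exactly 0. In sen1 pairs, RNR1 turned to 2.88 with the upper 50% of peaks and 5.16 with lists of equal length, RNR3 to 1.22 with the upper 50% and 15.9 for the 300 bp upstream alone, RNR4 to 6.69 with the upper 50%, 3.15 with equal lengths, 0.0578 for the body alone and 0.523 with genes moved 100 bp right, and RNR2 to -0.0631 relative to the genome share. In rrm3 pairs, RNR2 turned to -0.36 with the upper 50% and -0.158 for the body alone, and RNR4 to 5.19 with equal lengths. In top2-1 pairs, RNR1 turned to 18.5 upstream alone, RNR3 to 1.01 with the upper 50%, 0.876 with equal lengths and 0.230 for the body alone, and RNR4 to 1.76 with equal lengths. Without the 2 lists that stand apart, an alternative chosen after seeing the data, top2-1 pairs gave 3.15 for RNR1, 0.790 for RNR3 and 0.673 for RNR4, and 32 °C against log gave -0.5 for RNR2 and -1.08 for RNR4. RNR1 turned to -37.1 in S phase against log and -0.5 at 32 °C against log, both upstream alone, and RNR3 to -7.16 in S phase against log with the upper 50%. Leaving out 1 pair at a time, sen1 differences ran from -4.17 to 0.768 for RNR1, 0.630 to 3.12 for RNR2, -4.70 to 0.306 for RNR3, -1.79 to 0.606 for RNR4 and 3.62 to 14.7 for HUG1, and rrm3 differences from 4.20 to 9.14 for RNR1, 0.748 to 2.80 for RNR2, -8.45 to -4.20 for RNR3, -2.70 to -0.191 for RNR4 and 18.6 to 33.3 for HUG1. The cause was not tested. With no read depth given, a missing peak does not show that signal was absent.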

Other observations

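Among genes whose bTMP cover varied most like a member's over the 20 lists, given as a description over lists that share widths and spacing, RML2, ARA2 and YNL108C stood nearest to RNR3 (Pearson's r = 0.958, 0.944 and 0.943), RXT3, NSR1 and HSP30 nearest to RNR4 (r = 0.947, 0.927 and 0.852), and YCX1, VPS52 and CHM7 nearest to RNR1 (r = 0.863, 0.861 and 0.861). HUG1 was left out, since it had cover in fewer than 5 lists.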
